A study of Mus musculus with 12 samples.

Results

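The mitochondrial ribosomal protein genes were compared in adipocytes that carried wild-type PPARγ (WT) or PPARγ with threonine 166 replaced by alanine (T166A, TA) or by aspartate (T166D, TD). PPARγ is the nuclear receptor that drives fat cell differentiation. The members were all genes of the count table whose symbol begins with Mrpl or Mrps and a digit, pseudogenes aside, and whose counts over the 12 libraries summed to at least 10. They were 77 of 55573 genes, 49 with Mrpl and 28 with Mrps symbols, spread over 17 chromosomes. Of 83 symbols of this form, 5 were pseudogenes, and Mrps10 was left out with 7 counts in all. All 77 members passed the filter on low counts and were tested.

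Cells of the stromal vascular fraction of subcutaneous (inguinal) white fat from C57BL/6 mice, homozygous for the WT, TA or TD allele, were differentiated in culture, and total RNA was sequenced from 4 libraries per genotype. The mutants were whole-body knock-ins, so every cell type in the culture carried the allele, and WT mice were their littermates. All 3 groups were induced for 4 days with 850 nM insulin, 1 nM triiodothyronine, 0.5 mM IBMX, 125 nM indomethacin and dexamethasone, kept in insulin and triiodothyronine, and harvested on day 8. The age and sex of the mice and the origin of each replicate were not given in the sources used here, so the p-values measure only the spread between these samples, which may be technical.

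The mitochondrial ribosome translates the messages of mitochondrial DNA, which encode core subunits of the respiratory chain and of ATP synthase. Its RNA is made inside the organelle, whereas all its proteins are encoded in the nucleus, made in the cytosol and imported. Some of these proteins have bacterial counterparts and others are found only in mitochondria. Beige fat cells, whose formation the study examined in these mutants, are rich in mitochondria.

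Libraries held 16553324 to 20324286 counts. The members took 0.271 to 0.311% of the counts in WT, 0.249 to 0.29% in TA and 0.201 to 0.246% in TD libraries. Levels are given as CPM (the counts of a gene scaled to a fixed library total) on library sizes scaled by TMM, differences as log2 fold changes, and a gene is called changed at an adjusted p under 0.05 in edgeR's quasi-likelihood test over 15117 genes. A substitution of 1 codon leaves the count of a gene uninformative about the allele, so the genotypes could not be checked from these counts. All 18 pairs of libraries within a genotype differed by more than sampling noise.

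The starts of 7 members are shown here because they set members that fell in TD cells beside members that did not. RefSeq (GRCm38.p6) gave a window from 250 bases before to 50 after the start for 68 members. The windows below run from 120 bases before to 10 after the start, 5′ to 3′ on the gene's strand, and were chosen after their values were seen, from those with at most 30 bases of annotated exon. Capitals mark the letters CCGGAAG (an ETS core, the kind bound by GABP), GCATGCGC (an NRF1 core), AAGATGGCG (a YY1 core) or CACGTG (an E-box), searched on both strands. The first 4 belong to members that were lower in TD than in WT cells, Mrpl20 at chr4:155802758-155802887 (+ strand), Mrps24 at chr11:5707692-5707821 (− strand), Mrpl34 at chr8:71464806-71464935 (+ strand) and Mrpl22 at chr11:58171544-58171673 (+ strand). The last 3 belong to members that were not called, Mrpl33 at chr5:31613831-31613960 (+ strand), Mrpl52 at chr14:54426789-54426918 (+ strand) and Mrps25 at chr6:92184014-92184143 (− strand).
Mrpl20: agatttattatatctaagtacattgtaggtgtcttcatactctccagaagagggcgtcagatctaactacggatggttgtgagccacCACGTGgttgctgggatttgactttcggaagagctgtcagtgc
Mrps24: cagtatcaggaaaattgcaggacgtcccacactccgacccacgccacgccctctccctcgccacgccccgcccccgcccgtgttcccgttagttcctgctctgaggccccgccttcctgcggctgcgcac
Mrpl34: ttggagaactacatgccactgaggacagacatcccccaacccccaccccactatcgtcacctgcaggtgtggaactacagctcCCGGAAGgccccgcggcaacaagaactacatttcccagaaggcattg
Mrpl22: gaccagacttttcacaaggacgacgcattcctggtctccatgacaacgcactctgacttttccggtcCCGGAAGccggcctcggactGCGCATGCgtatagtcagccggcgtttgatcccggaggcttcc
Mrpl33: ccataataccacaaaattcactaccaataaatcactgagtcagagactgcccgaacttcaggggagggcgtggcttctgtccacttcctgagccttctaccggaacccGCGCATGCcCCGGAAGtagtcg
Mrpl52: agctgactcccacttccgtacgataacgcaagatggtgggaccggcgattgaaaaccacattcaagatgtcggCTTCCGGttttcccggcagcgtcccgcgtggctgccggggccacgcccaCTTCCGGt
Mrps25: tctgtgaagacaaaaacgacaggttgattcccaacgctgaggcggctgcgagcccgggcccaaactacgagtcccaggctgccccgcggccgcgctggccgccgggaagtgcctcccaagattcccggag

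Mrpl22 and Mrpl33 each held an ETS and an NRF1 match, Mrpl34 held 1 ETS match and Mrpl52 held 2. Mrpl20 held an E-box, and Mrps24 and Mrps25 held none of the 4 in the bases shown. The longer RefSeq window of Mrps24 held a YY1 match outside them. Matches therefore stood in windows of members that fell and of members that did not.

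RNA for the mitochondrial ribosome took a smaller share of the RNA of TD than of WT adipocytes. Of the 77 members, 64 fell and 0 rose, and 76 had a negative log2 fold change. Over all genes tested, 14.2% were called lower, 15.1% higher and 48.6% had a negative value. The members' median log2 fold change was -0.40, against 0.01 over all genes, and they ranged from -0.72 (Mrpl20) to 0.16 (Mrpl33). In 61 members each TD library lay below each WT library, which held for 16.4% of all genes. No member was higher in TD cells at an unadjusted p under 0.05 in edgeR (0 of 77, against 20.7% of all genes). DESeq2, run over 29115 genes, called 65 members lower, against 8.01% of those genes, and 0 members higher.

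Summed over the members, the level was 3190.2, 2753.6, 2729.3 and 3018.2 CPM in WT replicates 1 to 4. It was 2671, 3026.3, 2461.6 and 2778.8 CPM in TA and 2362.6, 2282.2, 2113.4 and 1947.8 CPM in TD replicates 1 to 4. Each TD library lay below each library of the other genotypes, TD averaged 74.5% of WT, and the WT and TA ranges overlapped.

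**Figure D1:**
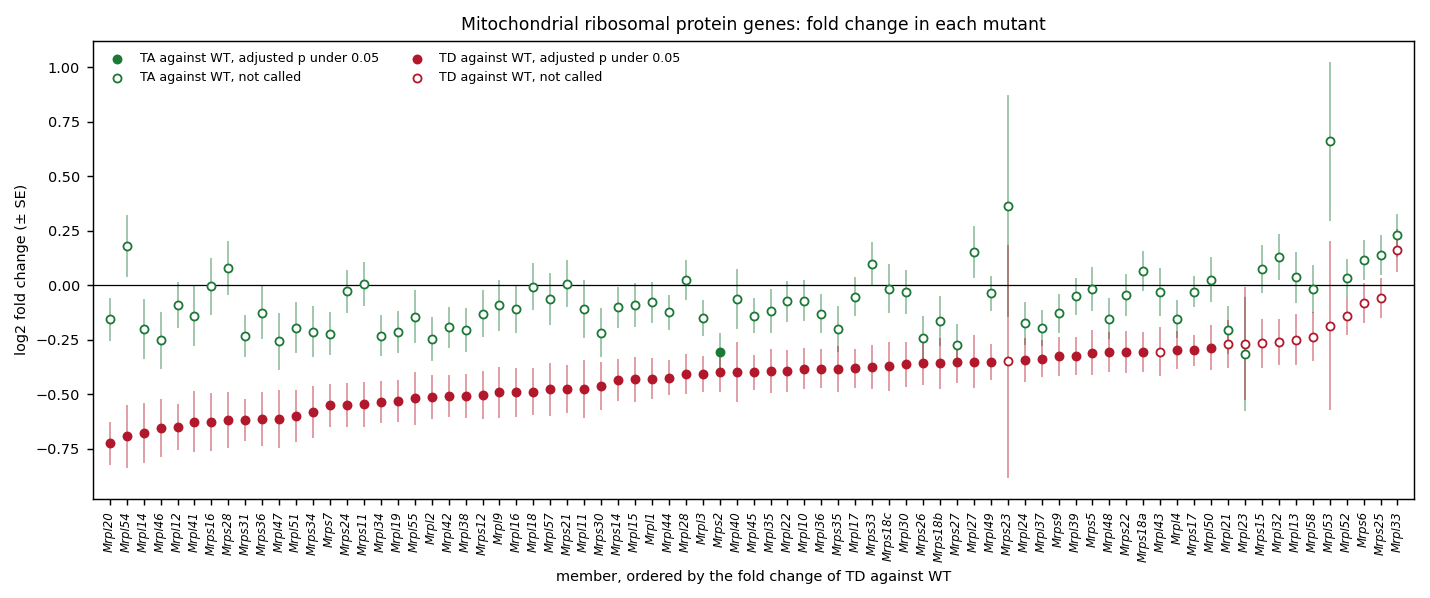
Log2 fold change (± SE) of each of the 77 members in TD against WT (red) and TA against WT (green), ordered by the first, with filled points for an adjusted p under 0.05 (n = 4 libraries per genotype). The red points lie below zero for all members but Mrpl33 and 64 are filled, whereas the green points lie around a median of -0.09 and only Mrps2 is filled.

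The 5 largest falls were those of Mrpl20, Mrpl54, Mrpl14, Mrpl46 and Mrpl12, all of the large subunit. Mrpl20, a protein with a bacterial counterpart that helps build the large subunit in bacteria, was at 89.3, 74.6, 67.1 and 80.7 CPM in WT libraries. It was at 69.2, 76.6, 64 and 70.1 CPM in TA and at 53.8, 50.3, 43.6 and 40.8 CPM in TD libraries. All 4 TD values lay below all 8 others, with a log2 fold change against WT of -0.72 (SE 0.10, adjusted p = 0.000166). Mrpl20 lies at chr4:155802878-155809975 (+ strand, GRCm38).

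Mrpl12 encodes the flexible stalk protein that recruits translation factors to the ribosome and that also binds the mitochondrial RNA polymerase. It was at 136, 118.7, 112 and 146.7 CPM in WT, 121.4, 136.3, 100.5 and 124.7 CPM in TA and 90.7, 85.8, 79.6 and 71.1 CPM in TD libraries. The TD libraries again lay below all others (log2 fold change against WT -0.65, SE 0.11, adjusted p = 0.000412), and the WT and TA libraries overlapped. The other stalk proteins also fell, Mrpl10, which anchors the stalk, by 0.38 on the log2 scale (adjusted p = 0.00615) and Mrpl11, at the stalk base, by 0.48 (adjusted p = 0.0137).

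Mrpl54, found only in mitochondrial ribosomes, was at 27, 22, 20.2 and 21.4 CPM in WT, 25, 31.9, 22.3 and 23.4 CPM in TA and 15.4, 16.9, 13 and 10.7 CPM in TD libraries. Its TD values were the lowest of the 12 and its mean was highest in TA. The log2 fold change was -0.69 against WT (SE 0.15, adjusted p = 0.00231) and -0.87 against TA (SE 0.15, adjusted p = 0.00088), the largest fall of any member against TA. Mrpl14, a conserved protein of the large subunit, fell from a mean of 29.5 ± 4.76 CPM (SD, n = 4) in WT to 18.5 ± 3.59 CPM in TD (log2 fold change -0.68, adjusted p = 0.00186). Mrpl46, of the central protuberance, fell from 21.2 ± 2.94 to 13.5 ± 1.68 CPM (log2 fold change -0.66, adjusted p = 0.00178), and its exons overlap those of Mrps11 on the other strand.

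**Figure D2:**
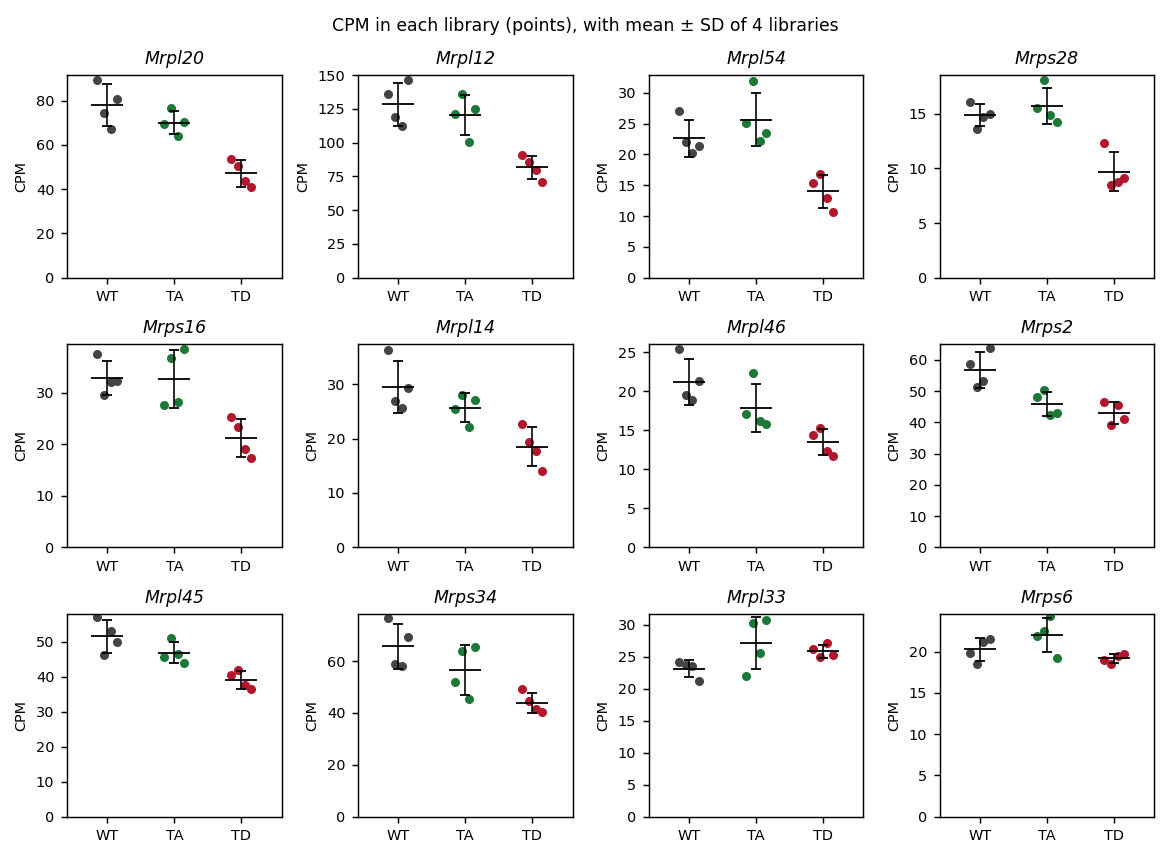
CPM of 12 members in each library (points) by genotype, with the mean ± SD of 4 libraries. In the panels of Mrpl20, Mrpl12, Mrpl54, Mrps28 and Mrps16 all TD points lie below the WT and TA points, Mrps2 is lower in both mutants, and Mrpl33 and Mrps6 show no fall.

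The fall was spread over both subunits. Of 49 members with Mrpl symbols 40 fell (median log2 fold change -0.40), and of 28 with Mrps symbols 24 fell (median -0.38). Sorted by origin, 25 of 30 large-subunit proteins with a bacterial counterpart fell (median -0.41) and 17 of 21 found only in mitochondria (median -0.40). In the small subunit, 13 of 15 conserved proteins (median -0.43) and 8 of 10 mitochondrial ones (median -0.36) fell. These groups place Mrps30 and Mrps18a in the large subunit, where their proteins sit despite their names. No difference between the groups was tested.

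The proteins listed here for the central protuberance were Mrpl18, Mrpl38, Mrpl40, Mrpl46, Mrpl48, Mrpl55 and Mrps30, a list that need not be complete. All 7 were lower in TD than in WT cells (median -0.49), as were 5 of 6 listed around the exit of the peptide tunnel (median -0.39). Mrpl45, which ties the ribosome to the inner membrane at the tunnel exit, was at 57, 46.2, 53 and 49.8 CPM in WT and 40.4, 41.8, 37.6 and 36.5 CPM in TD libraries, with no overlap (log2 fold change -0.40, SE 0.08, adjusted p = 0.0017). At the core of the large subunit, Mrpl2, close to the peptidyl transferase centre, fell by 0.51 on the log2 scale (adjusted p = 0.00142) and Mrpl3 by 0.41 (adjusted p = 0.00175). Mrpl44, whose fold resembles that of an RNase III, fell by 0.42 (SE 0.08, adjusted p = 0.00121). Mrpl58, a peptidyl-tRNA hydrolase that frees stalled chains and became part of the ribosome, was not called (log2 fold change -0.23, SE 0.11, adjusted p = 0.125).

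In the small subunit, Mrps28 was at 16.1, 13.6, 14.7 and 15 CPM in WT, 15.6, 18.1, 14.9 and 14.3 CPM in TA and 12.3, 8.52, 8.73 and 9.15 CPM in TD libraries. All TD values were below the rest, although replicate 1 stood above the other TD replicates. Mrps16, a conserved protein of the small subunit, was at 37.5, 29.6, 32.1 and 32.3 CPM in WT, 27.7, 36.8, 28.2 and 38.4 CPM in TA and 25.4, 23.3, 19.1 and 17.4 CPM in TD libraries. Its WT and TA libraries overlapped and TD lay below both (log2 fold change against WT -0.62, adjusted p = 0.00251). Mrps12, of the decoding centre, fell by 0.50 (adjusted p = 0.00285) and Mrps34, found only in mitochondria, by 0.58 (adjusted p = 0.00183). Mrps34 shares 71.8% of its stretches of 50 bases with other annotated genes, chiefly the overlapping Nme3, so its reads could have been split or set aside by the counting.

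The 3 Mrps18 paralogs, which take different places in the ribosome, fell by 0.30 (Mrps18a), 0.36 (Mrps18b) and 0.37 (Mrps18c) on the log2 scale, with adjusted p = 0.0209, 0.0299 and 0.0205. Mrps36 carries the family name but encodes a subunit of the 2-oxoglutarate dehydrogenase complex. It was at 14.7, 14.4, 12.8 and 12.8 CPM in WT and 8.86, 10.1, 8.09 and 8.68 CPM in TD libraries (log2 fold change -0.61, adjusted p = 0.00162). The 5 ribosomal proteins known by other names all fell in TD against WT (median -0.47), Dap3 from 76.3 ± 4.2 to 62.5 ± 3.38 CPM, Ptcd3 from 83.5 ± 4.34 to 67.9 ± 5.92 CPM, and Chchd1, Aurkaip1 and Gadd45gip1 by 0.48, 0.52 and 0.47 on the log2 scale.

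**Figure D3:**
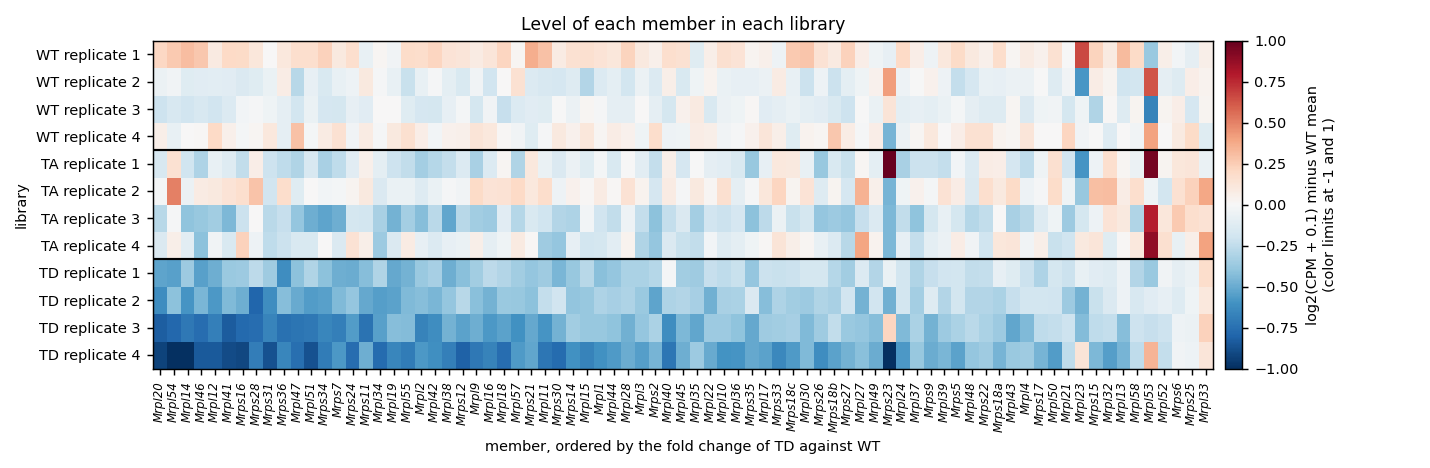
Each column is a member, ordered by its fold change in TD against WT, each row a library, and the color is log2(CPM + 0.1) minus the WT mean of the member, with color limits at -1 and 1. The 4 TD rows are blue across almost all columns and deepest in replicate 4, and the columns at the right end (Mrpl33, Mrps25, Mrps6, Mrpl52) stay pale.

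Of the 13 members not called in TD against WT, 12 had a negative value. Of these, 4 are described here, chosen after their values were seen. Mrpl33, a small conserved protein of the large subunit, was at 24.1, 23.6, 23.6 and 21.3 CPM in WT and 26.2, 25, 27.2 and 25.2 CPM in TD libraries, each TD library above each WT library, as for 15.8% of all genes (log2 fold change 0.16, SE 0.10, adjusted p = 0.249). Mrps6 had a log2 fold change of -0.08 (SE 0.09, adjusted p = 0.547) and Mrps25 of -0.06 (SE 0.09, adjusted p = 0.671). Mrpl52 had a value of -0.14 (SE 0.09, adjusted p = 0.253). Mrps25 shares 68.2% of its 50-base stretches with Nr2c2, which overlaps it on the other strand, and its reads cannot be told from those of Nr2c2 if strand was ignored in counting.

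Per kilobase of the longest principal transcript, the levels over all libraries ran from 0.569 to 85.1 CPM, with a median of 20.7. Mrpl20 (85.1 CPM per kilobase), Mrpl12 (83.8) and Mrps21 (66.6) were highest, and Mrps23 (0.569), Mrpl53 (1.37) and Mrps25 (3.25) lowest, values that depend on which transcript is taken. Mrps23 had 5 to 40 counts per library, and its log2 fold change against WT of -0.35 had an SE of 0.53. Mrpl53 had 9 to 27 counts per library (log2 fold change -0.18, SE 0.39), and 88% of its exons overlap Gm42688 on the same strand. At this depth a change of the size seen in the other members was not detectable for either gene. Of the 23 members that overlap no other gene and share no 50-base stretch, 20 fell in TD against WT, with a median of -0.40. Over 13104 tested genes with a principal transcript, the log2 fold change rose with its length in TD against WT (Spearman correlation 0.23) and TD against TA (0.26). Over the members the values were 0.11 and 0.28. The comparison of the members with all genes was not adjusted for length.

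TD adipocytes also had lower levels than TA adipocytes, which tests the difference between the mutants directly. Of the 77 members 46 fell and 0 rose, against 9.37% of all genes called lower and 7.33% higher, and 76 had a negative value, against 46.6% of all genes. The median log2 fold change was -0.33 (all genes 0.02), and in 37 members the TD libraries lay below all TA libraries, which held for 10.6% of all genes. No member was higher at an unadjusted p under 0.05 in edgeR (0 of 77, against 15.7% of all genes). DESeq2 called 48 members lower, against 5.62% of its 29115 genes, and 0 members higher. The 5 largest falls were those of Mrpl54 (-0.87), Mrps28 (-0.70), Mrps16 (-0.62), Mrpl20 (-0.57) and Mrpl12 (-0.56), with adjusted p between 0.00088 and 0.00518. This count depended on the scaling and on single libraries. With library totals in place of TMM, 17 members fell (median -0.25), while 6.5% of all genes were called lower. The 46 became 24, 14 and 28 when TA replicate 1, 2 or 4 was left out (7.12, 5.46 and 7.8% of all genes). The count became 30, 21 and 14 when TD replicate 2, 3 or 4 was left out (7.23, 6.23 and 5.79% of all genes). On leaving out any single library, the count was 14 to 53 and the median lay between -0.38 and -0.27.

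Against both WT and TA cells, 44 members were lower in TD cells, as were 6.15% of all genes. Another 20 were called against WT only (8.02% of all genes), 2 (Mrpl32 and Mrps15) against TA only (3.21% of all genes) and 11 against neither. Both comparisons use the same TD libraries, so their calls are not independent. By symbol, 30 of 49 members with Mrpl and 16 of 28 with Mrps symbols fell against TA. In the large subunit, 19 of 30 conserved proteins (median -0.33) and 12 of 21 found only in mitochondria (median -0.31) fell against TA. In the small subunit, 11 of 15 conserved proteins (median -0.34) and 3 of 10 mitochondrial ones (median -0.23) fell against TA. No difference between groups was tested.

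In TA against WT adipocytes, Mrps2 was the only member called lower, and 0 were called higher, while 4.41% of all genes were called lower and 6.72% higher. Mrps2, a conserved protein of the small subunit, was at 58.6, 51.4, 53.1 and 63.8 CPM in WT, 48, 50.2, 42.5 and 43.1 CPM in TA and 46.4, 39.2, 45.4 and 40.9 CPM in TD libraries. Both mutants lay below WT and overlapped each other (TA against WT log2 fold change -0.30, SE 0.09, adjusted p = 0.0334, TD against TA -0.10, SE 0.09, adjusted p = 0.495). The call for Mrps2 was lost when only these 2 genotypes were fitted and when TA replicate 3 or 4 or WT replicate 1 or 4 was left out.

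The median member had a log2 fold change of -0.09 in TA against WT, and 59 of 77 were negative, against 51% of all genes. At an unadjusted p under 0.05 in edgeR, 9 members were lower and 1 higher, against 11.2% and 13.9% of all genes. DESeq2 called 1 member lower, against 2.95% of its 29115 genes, and 0 members higher. In 4 members (Mrps2, Mrps31, Mrpl34 and Mrpl36) the TA libraries lay below all WT libraries, which held for 5.85% of all genes. The means stood in the order WT, TA, TD in 58 members and TA, WT, TD in 17, and TD was lowest in 75. Mrps27, chosen after its values were seen, was at 38.2 ± 5.13, 31.7 ± 2.07 and 29.9 ± 2.45 CPM in WT, TA and TD, and its change in TA was not called (log2 fold change -0.27, adjusted p = 0.0837).

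**Figure D4:**
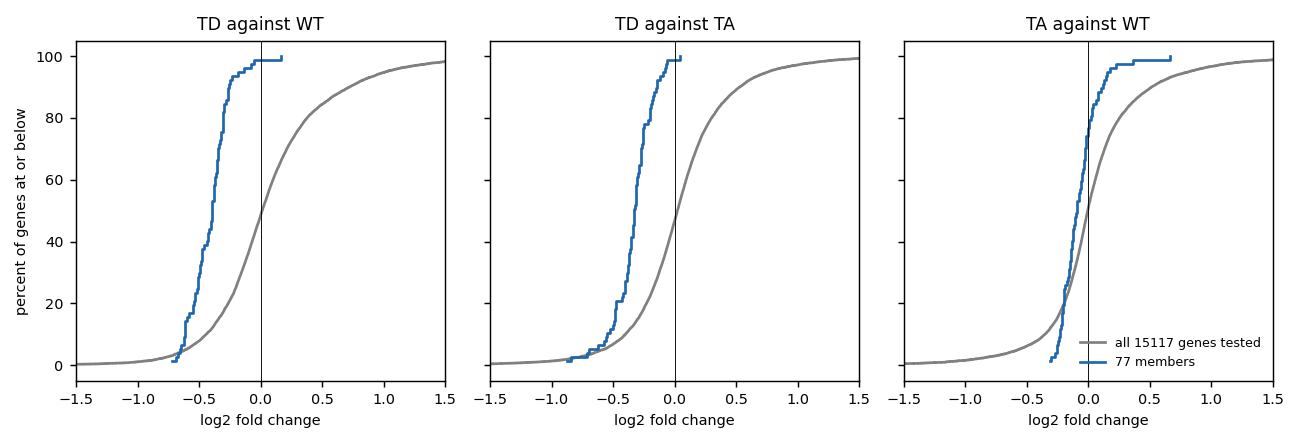
Cumulative share of genes (percent, y axis) at or below each log2 fold change (x axis) for the 77 members (blue) and all 15117 genes tested (grey) in each comparison. The members' curve lies to the left of that of all genes against WT (medians -0.40 and 0.01) and against TA (-0.33 and 0.02), and near it for TA against WT (-0.09 and -0.01).

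Most members moved together from library to library, with a median Pearson r of 0.91 between a member and the mean of the others over the 12 libraries, which share genotype and library effects. For 6 members r was under 0.5, with Mrpl33 lowest at -0.14, followed by Mrpl53, Mrpl23, Mrps23, Mrps6 and Mrps25. TD replicate 4 was the lowest of the 12 libraries for 56 members and TD replicate 1 the highest of the TD libraries for 44. Replicate 1 was highest among WT libraries for 52 members, and in TA replicate 2 was highest for 56 and replicate 3 lowest for 51. Set against the WT mean, the median member was at -0.30, -0.35, -0.43 and -0.56 on the log2 scale in TD replicates 1 to 4, while the median of all genes stayed between 0.01 and 0.02 in those libraries. At least 74 members were below the WT mean in each TD library.

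In TD against WT, markers of fat cells were also lower and those of some other cells higher. The summed level of 10 adipocyte markers, such as Adipoq and Plin1, was 16450 to 19239 CPM in WT, 15906 to 21931 CPM in TA and 10829 to 12990 CPM in TD libraries, and 8 of 10 fell in TD against WT (median -0.49). None of the 10 was at 0 in any group, so the cultures carried the markers of their label. Within TA and within TD the libraries stood in the same order by adipocyte markers as by the members' sum. Within WT, replicates 2 and 3 changed places between the orders. As a percentage of the adipocyte marker sum, the members' sum was 16 to 16.7% in WT, 13.6 to 15.5% in TA and 17.7 to 18.2% in TD libraries, so that it was highest in TD when set against these markers. Several of these markers are known targets of PPARγ. In bulk RNA, fewer fat cells and less RNA per fat cell cannot be told apart.

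Of 9 fibroblast and preadipocyte markers tested 7 rose in TD against WT (median 0.84), and their sum was 9182 to 12465 CPM in WT, 10381 to 18605 CPM in TA and 15704 to 23738 CPM in TD libraries. Endothelial markers rose in 7 of 8 and macrophage markers in 1 of 8 in TD against WT. All 12 skeletal muscle markers rose in TD against WT, and 7 of 12 were called higher in TA against WT. Their sums were 4.31 to 12.7 CPM in WT, 19.2 to 83.1 CPM in TA and 20.3 to 306.7 CPM in TD libraries, the last highest in replicates 3 and 4. In TD against TA, 8 macrophage markers had a median of 1.03 with 3 called higher, 6 of 12 muscle, 3 of 8 endothelial and 3 of 9 fibroblast and preadipocyte markers rose, and of 10 adipocyte markers 7 fell and 1 rose. The macrophage sum was 136.2 to 586.2 CPM in TA and 621.7 to 859.6 CPM in TD libraries. The part of these markers in the members' fall was not tested. Without TD replicates 3 and 4, an alternative chosen after seeing the data, 14 members fell against WT and 1 against TA, while genes called lower over all genes fell from 14.2 to 4.33% and from 9.37 to 2.86%. The medians were then -0.34 and -0.23, and 76 and 77 members were negative.

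Genes that work with the mitochondrial ribosome were also measured. Of 27 genes for ribosome assembly 10 fell in TD against WT (median -0.27), of 15 translation factors 9 (median -0.25) and of 20 genes that charge tRNAs 13 (median -0.35), and none of these rose. Against TA they were 0 of 27, 5 of 15 and 3 of 20. Tufm, the elongation factor that brings tRNAs to the mitochondrial ribosome, was at 71.5 ± 4.37, 69 ± 4.73 and 58.4 ± 3.04 CPM in WT, TA and TD (TD against WT log2 fold change -0.29, adjusted p = 0.0069). Lrpprc, which stabilises mitochondrial messages, fell in both mutants, by 0.50 in TD (adjusted p = 0.000247) and by 0.30 in TA (adjusted p = 0.0146).

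Of 11 genes that copy and transcribe mitochondrial DNA, 4 fell in TD against WT (median -0.22). Tfam, which packages and activates that DNA, was at 29.8 ± 2.63, 31.3 ± 1.85 and 24.9 ± 1.84 CPM in WT, TA and TD (TD against WT -0.26, adjusted p = 0.0339). Polrmt, the polymerase, was not called (log2 fold change -0.04, SE 0.11, adjusted p = 0.804). The ribosomal RNAs of the organelle had values of -0.57 (mt-Rnr2, adjusted p = 0.0181) and -0.45 (mt-Rnr1, adjusted p = 0.0755) in TD against WT.

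Genes of the respiratory chain and of mitochondrial DNA fell as well. Of 81 nuclear genes for the respiratory chain and ATP synthase 74 fell in TD against WT (median -0.68), as did 13 of 16 tested genes of mitochondrial DNA (median -0.83). The 16 include the 2 ribosomal RNAs given above and the tRNA gene mt-Tp, which are not translated. The members' sum was 19.1 to 19.9% of the summed level of the respiratory chain genes in WT, 19.3 to 21.3% in TA and 23.2 to 23.9% in TD libraries. The TD range lay above both others. Set against cytosolic ribosomal protein genes the members' sum was lowest in TD, 12.5 to 14% against 18.4 to 19.8% in WT and 14.3 to 20.8% in TA libraries. Against genes of mitochondrial DNA it was 5.13 to 5.63% in WT, 5.85 to 10% in TA and 6.87 to 7.37% in TD libraries, the last within the TA range. Of the 76 protein genes of the cytosolic ribosome, 1 was lower and 8 were higher in TD against WT (median 0.09).

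**Figure D5:**
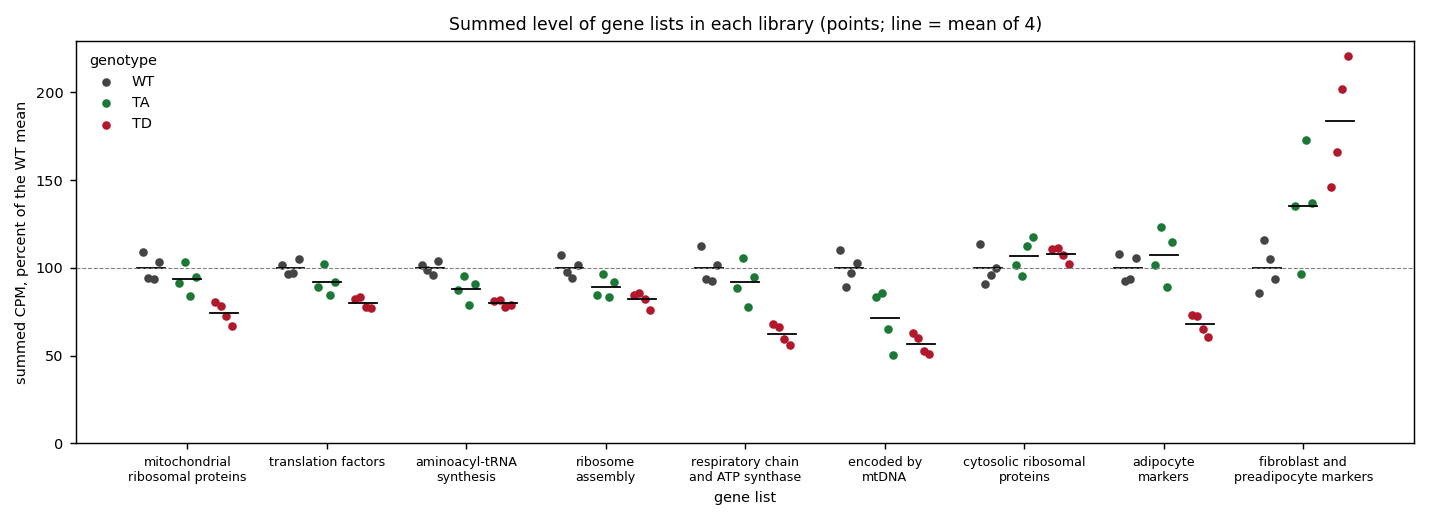
Summed CPM of 9 gene lists in each library, as a percentage of the WT mean of the list, by genotype (points, 4 libraries each, line at the mean). In TD the members average 74.5% of WT, the respiratory chain and ATP synthase 62.4%, cytosolic ribosomal proteins 108% and fibroblast and preadipocyte markers 183.7%.

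Among 10 regulators of mitochondrial gene expression, 3 were lower in TD than in WT cells. Esrra, the estrogen-related receptor that drives mitochondrial genes, was at 83, 85.7, 77.5 and 77.9 CPM in WT, 64, 81.9, 60.3 and 76.3 CPM in TA and 54.7, 53.3, 50.6 and 45.1 CPM in TD libraries. The TD libraries lay below all others (log2 fold change against WT -0.67, SE 0.09, adjusted p = 0.000187, against TA -0.47, adjusted p = 0.00328). Pparg itself fell by 0.58 against WT (adjusted p = 0.000429) and by 0.65 against TA (adjusted p = 0.000269).

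The coactivators did not follow a single order. Ppargc1b was at 12.2, 12.6, 15 and 22.9 CPM in WT, 7.6, 8.79, 7.46 and 8.17 CPM in TA and 9.31, 7.65, 9.85 and 10 CPM in TD libraries, lower in both mutants (adjusted p = 0.00181 in TA and 0.00378 in TD). Ppargc1a was higher in TA than in WT cells (log2 fold change 0.52, SE 0.11, adjusted p = 0.00533) and had a value of -0.29 in TD against WT (adjusted p = 0.0576). Nrf1, Gabpa and Yy1, whose products bind the promoter letters above, had log2 fold changes of 0.01, 0.15 and 0.02 in TD against WT, none called. Myc was lower in TA than in WT cells (-0.32, adjusted p = 0.033). In TD against TA cells, Ppargc1a was called lower (-0.81), and Myc (0.48) and Pprc1 (0.34, adjusted p = 0.0361) were called higher.

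In the full 300-base windows, CCGGAAG stood in 26 of 68 members (38.2%) and in 9.93% of 27025 genes with a window. The YY1 letters stood in 8 members (11.8%, all genes 1.64%), the NRF1 letters in 8 (11.8%, all genes 3.05%) and CACGTG in 5 (7.35%, all genes 8.09%). TCAAGGTCA, bound by estrogen-related receptors, and an exact copy of the direct repeat bound by PPARγ with its partner (DR1) stood in 0 of 68 (all genes 0.466% and 0.0481%). CCAAT stood in 26 (38.2%, all genes 41.1%). No matches of different motifs overlapped in the members. The members with CCGGAAG had a median log2 fold change of -0.36 in TD against WT and those without it -0.41. Of the members with a match, 19 of 26 (CCGGAAG), 6 of 8 (NRF1), 8 of 8 (YY1) and 5 of 5 (CACGTG) were called lower. Among all 77 members 64 were called lower, and a link to the motifs was not tested. The members' windows had a median GC content of 58%, against 52.8% over all genes. Unlike the members, the 27025 genes were not limited to those tested for expression here. The motif shares were not adjusted for expression or GC content.

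A divergent protein-coding neighbour, starting within 1000 bases on the other strand, was found for 23 of 77 members (29.9%), against 11.7% of 13095 coding genes tested. Pairs whose starts overlapped by more than 200 bases were not counted. Of these 23 neighbours 3 were lower and 2 higher in TD against WT, with a median of -0.11, and the members beside them had a median of -0.38. As examples chosen after their values were seen, Mrpl36 (log2 fold change -0.38, adjusted p = 0.0043) starts next to Ndufs6, a complex I subunit that fell by 0.96 (adjusted p = 0.000363). Mrpl51 (-0.60, adjusted p = 0.00141) starts next to Ncapd2, a condensin subunit that was higher in TD (0.25, adjusted p = 0.0216). Members without such a neighbour had a median of -0.40.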

How the data were processed

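Per the labels, reads were handled with bcl2fastq 2.17.1.14, cutadapt 1.9.1, HISAT2 2.0.1 and HTSeq 0.6.1 against GRCm38, and the authors deposited raw counts per gene, as 1 table and again library by library with equal values. The strand setting of the counting was not given in the sources used here, so overlapping genes on opposite strands may share reads. Gene models came from GENCODE M21, which held 55480 of the 55573 gene IDs.

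Genes were filtered with filterByExpr (minimum count 10, minimum total 15), scaled by TMM and fitted in 1 model of the 3 genotypes with edgeR 4.0.16 (glmQLFit and glmQLFTest, R 4.3.3), with Benjamini-Hochberg adjustment over 15117 genes. The fit was tested on simulated counts. DESeq2 1.42.0, other scalings, filters, a replicate block and leaving out each library were the alternatives. The number of counts per gene limits precision, with a common biological coefficient of variation of 12.9%.

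The members and the gene lists were chosen with earlier results of these data known. Members were named where they had the 5 largest called falls in a comparison, a fixed role in the ribosome, or the 3 highest or lowest levels per kilobase. Other members were named after their values were seen, to spell out a small count or as examples.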

Additional observations from a re-analysis of the deposited data

Results flagged for a closer look

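Of 78 groups of 4 libraries (25 named members and their sum, 3 genotypes each), 6 held a library far from the other 3 by Dixon's test, which flags about 1 group in 20 by chance. In WT replicate 1, Mrpl10 was at 66.2 CPM (others 56.7 to 57.7), Mrps18c at 25 CPM (19.1 to 19.8) and Mrps21 at 45.6 CPM (32.2 to 32.8). In TA, Mrps23 was at 2.34 CPM in replicate 1 (0.492 to 0.501) and Mrps36 at 15.4 CPM in replicate 2 (11.5 to 11.7). In TD replicate 1, Mrps28 was at 12.3 CPM (8.52 to 9.15). WT replicate 1 and TA replicate 2 also had the highest summed member level of their genotypes, and 40 of the 166 counts of Mrps23 came from TA replicate 1.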

How the results depend on the processing

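The count of members lower in TD against WT, 64 as reported, was between 49 and 65 on leaving out single libraries, 54 with library totals in place of TMM and 46 at an adjusted p under 0.01, but 14 without TD replicates 3 and 4 together, an alternative added after seeing the data. Library totals moved the median of all genes by 0.10 in TD against TA, where the count of 46 became 17. It became 12 at an adjusted p under 0.01, 1 without TD replicates 3 and 4, and 14 to 53 on leaving out single libraries. On leaving out single libraries, 9.69 to 14.8% of all genes were called lower in TD against WT and 5.46 to 11.4% in TD against TA. With library totals these shares were 10.3 and 6.5%. In TA against WT the 1 member called lower became 0 with only the 2 genotypes fitted, with the replicate block and at an adjusted p under 0.01, and 0 to 2 on leaving out single libraries, and members called higher were 0 to 1 (Mrpl33, without TA replicate 1). The medians kept their sign under every alternative run, from -0.44 to -0.33 (TD against WT), -0.38 to -0.23 (TD against TA) and -0.16 to -0.04 (TA against WT).

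Same-numbered libraries did not deviate together (correlations from -0.0598 to 0.0352 for TD and WT, -0.103 to 0.107 for TD and TA, and -0.237 to 0.196 for TA and WT). With the replicate block the counts lower were 66, 45 and 0.

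The sign of 8 values of named members, none of them called, depended on single libraries. On leaving them out one at a time, the log2 fold change ranged from -0.389 to 0.0852 for Mrpl53 and -0.111 to 0.00726 for Mrps25 in TD against WT, and -0.962 to 0.222 for Mrps23 in TD against TA. In TA against WT it ranged from -0.0833 to 0.0712 (Mrpl58), -0.0986 to 0.0673 (Mrps16), -0.0569 to 0.0786 (Mrps18c), -0.0407 to 0.142 (Mrps21) and -0.570 to 0.579 (Mrps23). Mrps25 was at 0.00932 in TD against WT with library totals, Mrps16 at 0.000995 in TA against WT with at least 10 counts required in every library, and Mrps21 at -0.00243 with library totals and -0.00541 with no filter. The cause was not tested. Counting each named member, comparison and alternative once, 118 values lost their call with the same sign, 6 gained one and 1399 kept their sign and their side of the threshold.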
